A study of Mus musculus with 28 samples.

Results

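The epidermal growth factor receptor (EGFR) system was followed here through 10 genes in mouse epidermal stem cells: 6 ligands (Areg, Ereg, Hbegf, Tgfa, Btc and Epgn), 3 receptors (Egfr, Erbb2 and Erbb3) and the receptor inhibitor Errfi1. The genes were chosen by name, by matching gene IDs to GRCm38 symbols, and all 10 of the 30802 genes with at least 1 read passed the filter on low counts, which left 17299 genes for testing. The mice were C57BL/6, labelled female, and from postnatal day 60 their skin received either imiquimod, a Toll-like receptor 7 agonist that provokes psoriasis-like inflammation, or a control vanicream, for 6 days. Every library came from cells sorted as integrin α6+, integrin β1+, Sca1+ and CD34-, the surface profile of basal epidermal stem cells outside the hair follicle bulge. Cells were taken at the end of the 6 days (day 6), 30 days after treatment as the labels give it (called day 30, after the titles), or 6 h or 12 h after a full-thickness wound of the back made at that later time; control and imiquimod-treated skin were sampled at each of these 4 times. The mice at day 30 and the wounded mice thus carried a past treatment, called imiquimod history below, and not a current one. Each of the 8 groups had 2 RNA-seq libraries, 16 in all, and nothing in the labels says whether the pair came from separate animals or pools, so p-values measure the spread between these libraries, which may be technical.

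EGFR and its relatives are receptor tyrosine kinases that dimerise when a ligand binds and signal through RAS and ERK. The ligands are made as membrane-anchored precursors and are released by metalloproteases, so keratinocytes stimulate themselves and their neighbours. In epidermis this loop drives proliferation and migration, and its ligands are known for their induction in wounded and psoriatic skin. Areg, Hbegf, Tgfa, Btc, Epgn and Ereg bind EGFR, and Hbegf, Btc and Ereg can also bind ERBB4. ERBB2 has no ligand of its own and serves as a partner, ERBB3 binds neuregulins and has little kinase activity of its own, and ERRFI1 (MIG6) binds the kinase domain of active EGFR and shuts it down.

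Library totals ran from 23623968 to 76993427 counts. Of the 10 genes, relative counting error was largest for Btc, with 12 to 911 reads, and for Ereg, with 22 to 2592 reads. The defining basal keratins were abundant in every library, Krt5 between 14056 and 29560 CPM (counts divided by the library's total, brought to 1 scale) and Krt14 between 11340 and 31575 CPM. Other basal markers differed at day 6, as given below. Cd34 lay between 0.193 and 10.4 CPM. Its highest values were those of day 6, 3.23 and 8.78 CPM in control and 7.90 and 10.4 CPM in imiquimod libraries. The day 30 libraries went against a label and against each other. The libraries numbered 1 of control and imiquimod skin had at most 1 Xist read and at least 6048 Y-linked reads, whereas the other 14 libraries had at least 11484 Xist reads and at most 13 Y-linked ones, so the label female was not met in those 2. The libraries numbered 2 held more late differentiation RNA, which is described below with the ligands it moved with. Results that use day 30 were therefore recomputed without either pair.

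Of the 10 genes, 4 lie side by side. Epgn, Ereg, Areg and Btc occupy chromosome 5 from 91027517 to 91402994 (GRCm38.p6), a stretch of 375.5 kb in which they are the 4 annotated protein-coding genes among 7 genes. Their levels differed from group to group in different ways, as given below. Of the other genes, Tgfa lies on chromosome 6, Egfr and Erbb2 on chromosome 11, Erbb3 on chromosome 10 and Errfi1 on chromosome 4. Counts of overlapping genes cannot be told apart without strand; the widest overlap is that of Egfr with the non-coding Egfros, over 21103 bases of its span of 161705.

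Promoter windows of 250 bases before the start site were available from RefSeq (GRCm38.p6) for 7 of the 10 genes, 8 windows in all. Areg and Tgfa are shown because both ligands rose in response to a treatment, and Errfi1 because its second start site shares a motif with Areg. Capitals mark the 4 motifs written out here, on either strand: the cAMP response element TGACGTCA, the TATA box TATAAA, the GC box GGGCGG and the AP-1 site TGANTCA. Areg is at chr5:91139349-91139598, Tgfa at chr6:86194972-86195221 and Errfi1 at chr4:150854820-150855069, each on the plus strand. The annotated Tgfa gene begins at 86195038, inside its window, so that window precedes a later start site and lies partly within the gene.
Areg: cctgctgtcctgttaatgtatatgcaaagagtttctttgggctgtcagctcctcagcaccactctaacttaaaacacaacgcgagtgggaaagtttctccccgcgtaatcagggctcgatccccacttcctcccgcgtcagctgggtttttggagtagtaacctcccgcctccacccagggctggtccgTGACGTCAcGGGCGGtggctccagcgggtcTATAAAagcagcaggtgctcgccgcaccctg
Tgfa: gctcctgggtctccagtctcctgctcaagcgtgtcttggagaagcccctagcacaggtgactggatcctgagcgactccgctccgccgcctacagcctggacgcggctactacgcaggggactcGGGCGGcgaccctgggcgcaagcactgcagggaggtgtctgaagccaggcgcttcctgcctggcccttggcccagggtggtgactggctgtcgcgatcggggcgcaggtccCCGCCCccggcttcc
Errfi1: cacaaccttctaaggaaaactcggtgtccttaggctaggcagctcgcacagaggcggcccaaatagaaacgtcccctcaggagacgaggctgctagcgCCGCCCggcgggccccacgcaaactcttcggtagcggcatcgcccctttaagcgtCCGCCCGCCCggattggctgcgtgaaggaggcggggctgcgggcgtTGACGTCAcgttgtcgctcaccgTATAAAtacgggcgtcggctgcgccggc
Counted from the start site, the full cAMP response element began at -61 in Areg and at -51 in Errfi1, in each case followed by a TATA box, at -31 and -28. Over the 32851 windows of all genes, 1.55% held this element, 12.4% the TATA box and 32.7% the GC box, which Tgfa held at -126 and -15 with neither of the other motifs. The AP-1 letters were in none of the 8 windows and in 6.75% of all windows. The core TGACG, which lies inside the full element and is not capitalised, was in 17.8% of all windows and in those of Areg, Errfi1, Epgn, Btc and Erbb2. These are matches of letters only.

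**Figure D1:**
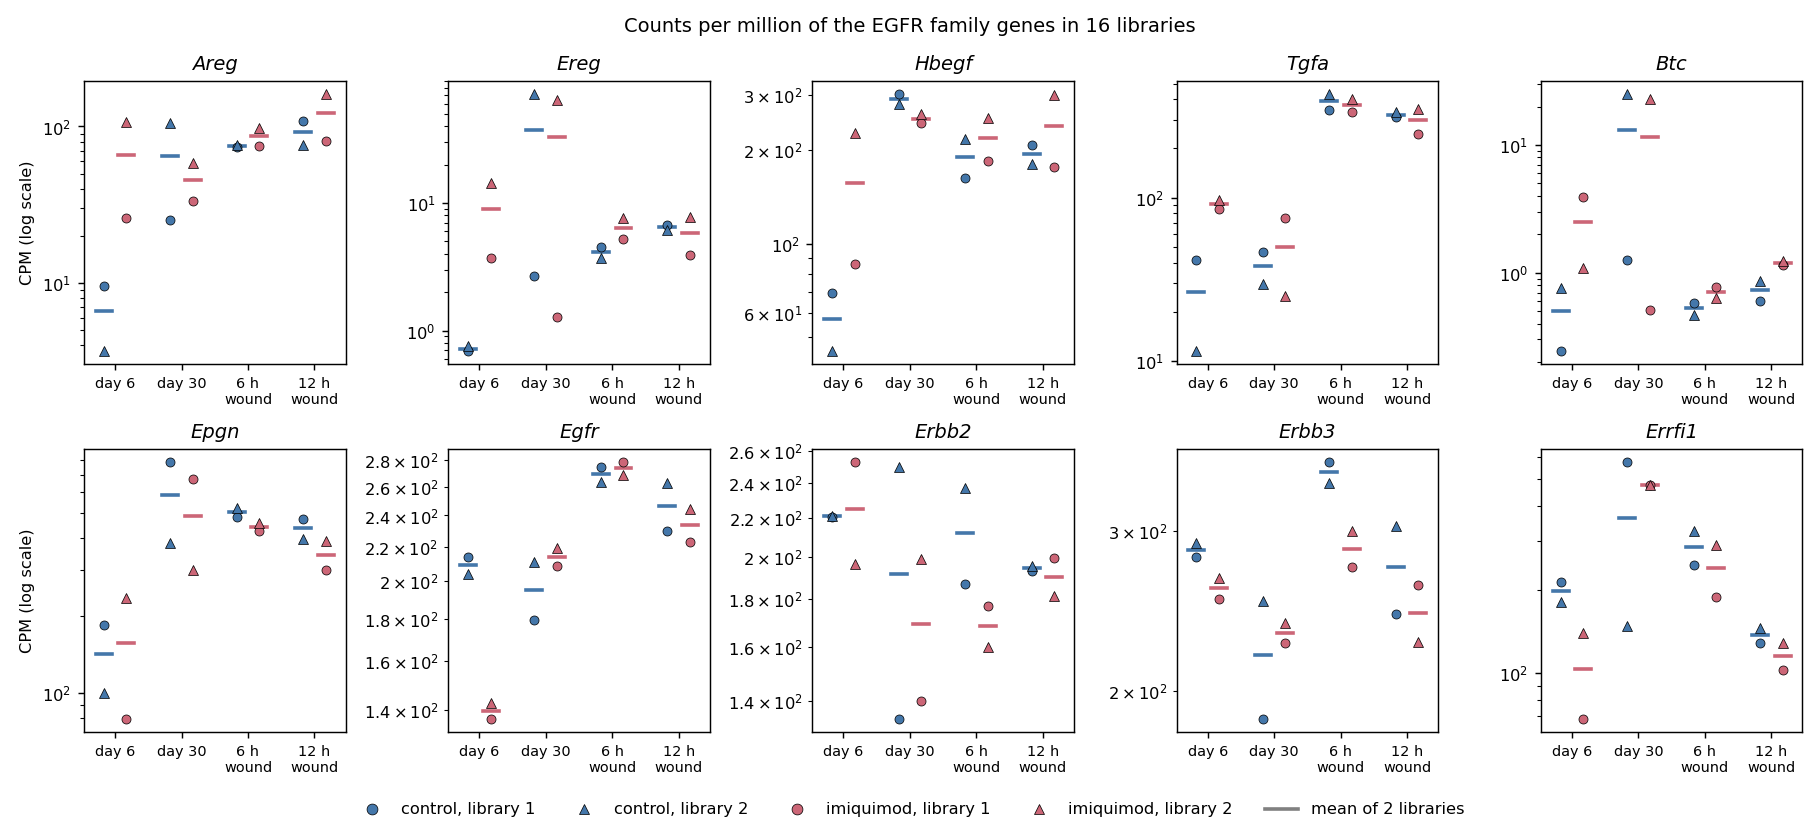
Level of each of the 10 genes in CPM (y axis, log scale, a separate range for each gene) at day 6, day 30, and 6 h and 12 h after wounding (x axis); blue symbols are control and red symbols imiquimod libraries, circles are libraries numbered 1, triangles those numbered 2, and bars the mean of 2 libraries. Tgfa in all 8 wound libraries lies between 246 and 432 CPM, above the 8 unwounded libraries, and Ereg and Btc are high only in the 2 day 30 libraries numbered 2.

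The first comparison asked what 6 days of imiquimod did while the inflammation was present. In the main fit, which did not pair libraries, Areg, Hbegf and Tgfa, all growth factors for keratinocytes, rose and Egfr, their receptor, fell slightly. Of the 10 genes, 3 passed the test upward and 1 downward; 21.6% of all genes tested were higher and 15% lower, 36.6% in all, by edgeR's quasi-likelihood F test with Benjamini-Hochberg adjustment at 0.05, which is the test used throughout. The median log2 change of the 10 genes was 1.05, against 0.10 over all genes tested.

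Areg, amphiregulin, stood at 9.55 and 3.65 CPM in the control libraries and at 26.0 and 106 CPM in the imiquimod libraries (mean 6.60 ± 4.17 and 66.1 ± 56.6, SD, n = 2 each). Both treated libraries were above both controls, although they differed widely from each other. The log2 change was 3.56 ± 0.88 (SE; adjusted p = 0.0112). Without the second control library the adjusted p was 0.0895, and without the second imiquimod library the change was 2.07 with an adjusted p of 0.0946.

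Hbegf, the heparin-binding ligand, had 69.1 and 45.1 CPM in control and 86.2 and 226 CPM in imiquimod cells. The groups did not overlap, but the lower treated library lay close to the higher control. The log2 change was 1.70 ± 0.45 (adjusted p = 0.0122). It fell to 0.70 (adjusted p = 0.165) without the second imiquimod library, and with the replicate number as a block within each time point it was 1.53 (adjusted p = 0.0639).

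Tgfa, transforming growth factor α, had 41.4 and 11.4 CPM in control and 84.9 and 96.6 CPM in imiquimod cells. Here the treated libraries were alike and the controls differed. The log2 change was 1.99 ± 0.62 (adjusted p = 0.0283), and it was 1.34 (adjusted p = 0.135) without the second control library.

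Egfr itself had 214 and 204 CPM in control and 136 and 143 CPM in imiquimod cells, the tightest pairs of the 4 genes. Its log2 change was -0.37 ± 0.13 (adjusted p = 0.0456). The size depends on the scaling: with library totals alone, as CPM are, it was -0.58 (adjusted p = 0.00264), and the call was lost in 13 of the 27 alternative analyses. Between these scalings the median of all genes moved from 0.10 to -0.11, so a change of this size at day 6 is to be read against that shift; the split of calls over all genes went from 59.1% higher to 42.7% higher.

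Ereg, epiregulin, had the largest fitted log2 change of the 10 genes at day 6 and did not pass. Its level was 0.686 and 0.757 CPM in control and 3.67 and 14.3 CPM in imiquimod cells, so the groups were apart. The log2 change was 3.89 ± 1.80 (adjusted p = 0.124). The spread is shared by all groups in the fit, and the day 30 libraries differed widely in Ereg. The adjusted p was 0.0022 without the day 30 libraries numbered 1, 0.0211 by DESeq2, 0.0153 with only the compared groups fitted, and 0.00155, with a change of 3.53, under the block within time point.

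Btc, betacellulin, was scarce, with 0.242 and 0.757 CPM in control and 3.92 and 1.10 CPM in imiquimod cells. The groups did not overlap, by a small margin. The log2 change was 2.59 ± 1.58 (adjusted p = 0.236), and 2.53 (adjusted p = 0.0149) under the block within time point. Epgn, epigen, overlapped between the groups, with 184 and 100.4 CPM in control and 79.3 and 235 CPM in imiquimod cells.

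The partner receptors showed little difference at day 6. Erbb2 had 221 CPM in each control library and 253 and 197 CPM in the imiquimod libraries. Erbb3 had 280.2 and 290.4 CPM in control and 252 and 266 CPM in imiquimod cells. The sign of the Erbb3 difference depends on the scaling, 0.08 with TMM and -0.14 with library totals, and neither passed the test. The inhibitor Errfi1 had 214 and 181 CPM in control and 68.4 and 139 CPM in imiquimod cells, apart in these values, with a log2 change of -0.69 ± 0.56 (adjusted p = 0.373).

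In this comparison 8 of the 10 genes had groups that did not overlap, against 67.7% of all genes tested, so separation of 2 libraries from 2 was common at day 6. None of the 4 calls held without control library 2 of day 6, and 1 held without imiquimod library 2. The libraries also differed at day 6 in markers of basal cells, of other cells and of differentiation. Of the 8 basal markers, Col17a1 had 1346 and 2793 CPM in imiquimod against 7592 and 7664 CPM in control cells. Trp63 had 614 and 779 CPM against 1389 and 1341 CPM, and Itgb4 484 and 605 CPM against 1200 and 985 CPM. Itga6 was also lower, at 504 and 1023 CPM against 1338 and 1131 CPM. Krt14 was higher, at 22071 and 31575 CPM against 18089 and 11340 CPM, and Krt5, Itgb1 and Ly6a overlapped. The sum of 7 suprabasal markers was 7669 and 17064 CPM in imiquimod against 5306 and 8646 CPM in control cells, highest in imiquimod library 2, where Areg and Hbegf were also highest. Krt1 made up much of it, with 4823 and 11280 CPM against 2222 and 2875 CPM, while Krt10 overlapped. The sum of 7 follicle and gland markers was 3505 CPM in imiquimod library 1 and 727 CPM in library 2, against 618 and 517 CPM, and Krt79 made up 3223 CPM of the first. That library also had the highest share of mitochondrial counts, 7.65%, against at most 3.31% in the other libraries.

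Of the immune and stromal lists, 9 macrophage markers summed to 74.9 and 80.2 CPM in imiquimod against 20.9 and 11.6 CPM in control cells, with Adgre1 at 9.49 and 11.7 CPM against 1.13 and 0.241 CPM. The 6 Langerhans and dendritic cell markers summed to 21.5 and 18.1 CPM against 5.85 and 4.20 CPM, nearly all of it Mfge8, with 20.5 and 17.6 CPM against 4.42 and 2.96 CPM. The defining Cd207 was lower, with 0.209 and 0.178 CPM against 0.323 and 0.689 CPM. The 8 fibroblast markers summed to 1226 and 1361 CPM against 564 and 745 CPM, mainly through Postn, with 968 and 844 CPM against 373 and 168 CPM. Col1a1 had 24.0 and 94.5 CPM in imiquimod and 41.2 and 201 CPM in control cells. The 5 neutrophil markers summed to 13.1 and 24.5 CPM in imiquimod against 2.93 and 0.241 CPM in control cells, with the defining Ly6g at 0 reads in all 4 libraries. The part of these differences in the ligand values was not tested. In sorted bulk samples fewer cells of a type and less RNA per cell cannot be told apart.

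**Figure D2:**
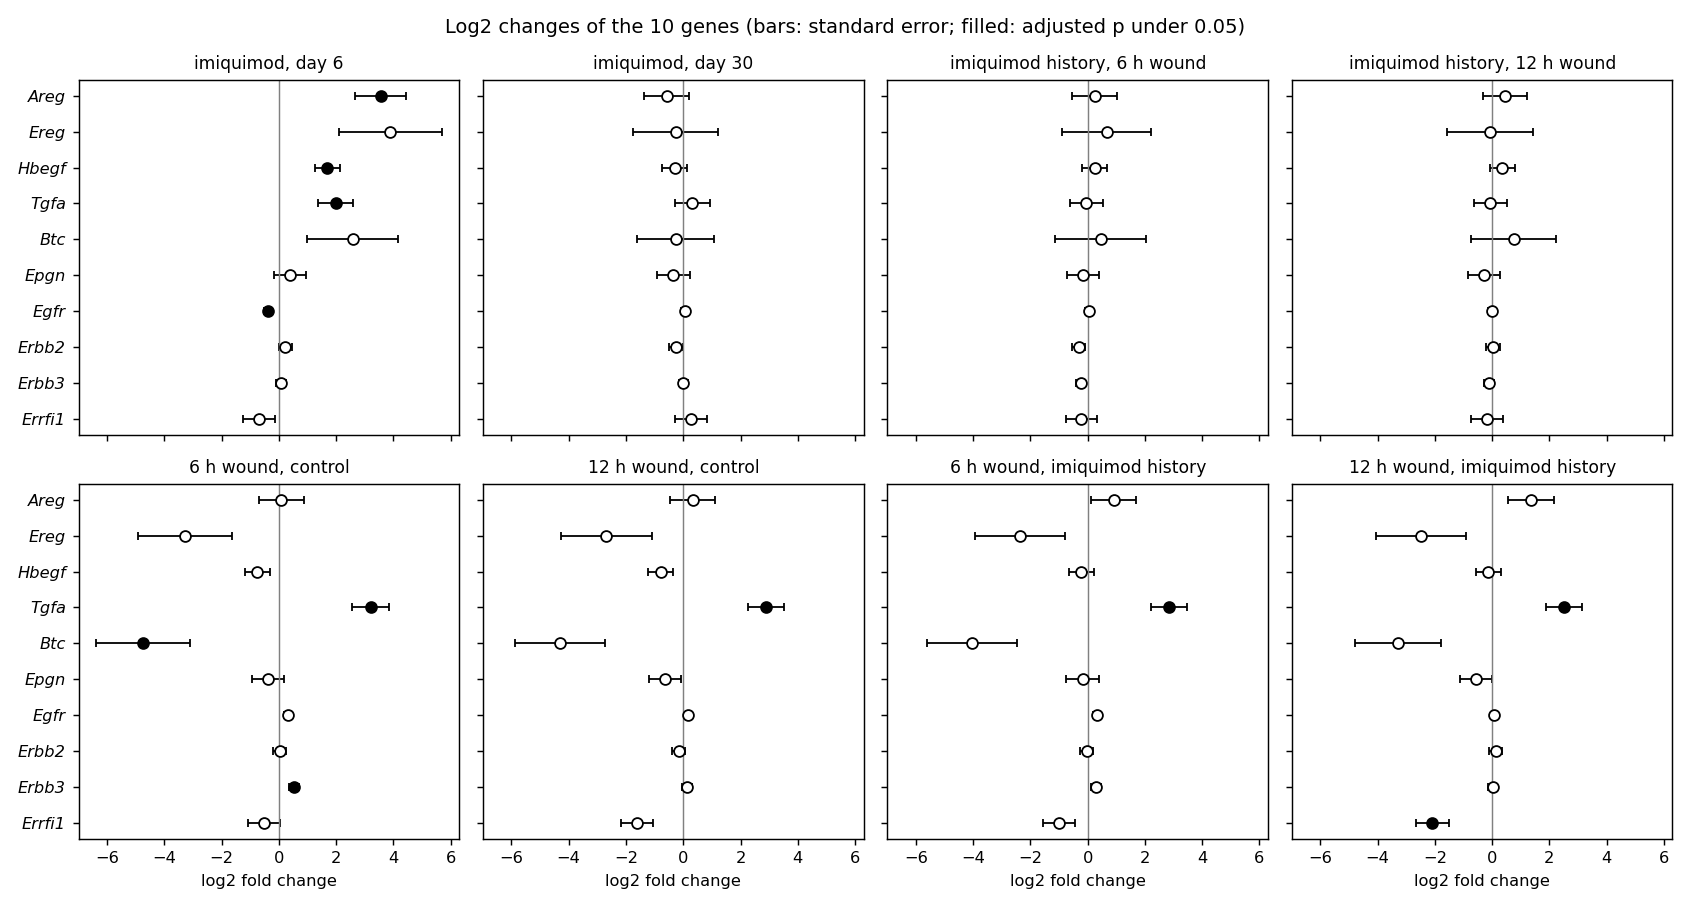
Log2 change of each of the 10 genes (y axis) in 8 comparisons; the upper row is imiquimod against control at each time and the lower row is wounds against day 30 skin of the same history, with bars of 1 standard error and filled circles where the adjusted p was under 0.05. Calls appear at day 6 (Areg, Hbegf, Tgfa and Egfr) and in the wounds, where Tgfa passes in all 4 comparisons, and none appears in the other 3 upper panels.

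The next comparison asked whether any of this was left 30 days after treatment. None of the 10 genes passed the test at day 30 (edgeR; 0 at an unadjusted p under 0.05 and 0 by DESeq2), and 0.0116% of all genes tested did. Hbegf was the 1 gene of the 10 whose groups did not overlap, with 302 and 281 CPM in control and 243 and 260.2 CPM in imiquimod-history cells, where 26.3% of all genes did the same. The log2 change of Hbegf was -0.29 ± 0.43.

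The other genes overlapped between the histories. Areg had 25.3 and 105 CPM in control and 33.3 and 58.2 CPM in imiquimod-history cells, and Tgfa had 46.5 and 29.7 CPM against 75.1 and 24.8 CPM. Egfr had 179 and 211 CPM against 209 and 219 CPM. Standard errors ran from 0.13 to 1.48 on the log2 scale. They were largest for Ereg (1.48) and Btc (1.35), where moderate differences would not have been detectable. For Areg (0.79), Tgfa (0.60), Epgn (0.57), Errfi1 (0.56) and Hbegf (0.43) moderate differences could also have gone uncalled. Egfr (0.06 ± 0.13) was measured closely.

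The difference between the day 6 and day 30 effects was tested directly. Areg had a larger log2 effect at day 6 by 4.14 ± 1.17 (adjusted p = 0.0323) and Hbegf by 1.99 ± 0.62 (adjusted p = 0.0408), while 13.7% of all genes tested had a higher log2 effect at day 6, 8.82% a lower one and 22.5% either. For Tgfa the difference was 1.67 ± 0.85 (adjusted p = 0.193), so its day 6 effect was not shown to differ from that at day 30. The Areg call was lost in 17 and the Hbegf call in 18 of the 27 alternative analyses, and under the block within time point Areg had an adjusted p of 0.0932 and Hbegf of 0.115, while Ereg (4.06, adjusted p = 0.00488), Btc (3.10, adjusted p = 0.0279) and Egfr (-0.43, adjusted p = 0.0464) passed, with 34.3% of all genes called.

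The control skin of the 2 ages stood at different levels, a pair that was not among the comparisons tested. Hbegf had 69.1 and 45.1 CPM in day 6 controls and 302 and 281 CPM in day 30 controls, above the imiquimod libraries of day 6. Epgn had 184 and 100.4 CPM in day 6 controls and 789 and 384 CPM in day 30 controls. Egfr differed far less, with 214 and 204 CPM against 179 and 211 CPM.

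Within day 30 the 2 libraries of a group disagreed more in Ereg and Btc than the histories did. Ereg had 71.6 and 63.9 CPM in the libraries numbered 2 of control and imiquimod history, and 2.67 and 1.27 CPM in those numbered 1. Btc had 25.2 and 22.8 CPM in the same libraries and 1.25 and 0.508 CPM in the others. These 2 libraries held the highest Ereg and Btc levels of all 16, and the next highest were 14.3 CPM for Ereg and 3.92 CPM for Btc, both in imiquimod cells of day 6. Areg was divided in the same way by a smaller gap. It had 105 and 58.2 CPM in the libraries numbered 2 of control and imiquimod history, and 25.3 and 33.3 CPM in those numbered 1.

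Markers of late keratinocyte differentiation followed the same division. So did sex-linked RNA, with Xist reads in the libraries numbered 2 and Y-linked reads in those numbered 1. Sex by these reads and differentiation RNA therefore cannot be told apart in the Ereg, Btc and Areg values. Lor, loricrin of the cornified envelope, had 467 and 556 CPM in the libraries numbered 2 and 14.9 and 14.6 CPM in those numbered 1. Ivl, involucrin, had 118 and 64.7 CPM against 10.7 and 11.6 CPM, and Flg, filaggrin, 18.8 and 12.8 CPM against 0.251 and 0.254 CPM. The sum of all 7 suprabasal markers was 29155 and 16858 CPM against 15501 and 14742 CPM, and that of 7 follicle and gland markers 910 and 733 CPM against 396 and 543 CPM. The part of these cells in the Ereg, Btc and Areg values was not tested.

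Errfi1 behaved differently within day 30. It had 578 CPM in control library 1, 149 CPM in control library 2 and 475 CPM in each imiquimod-history library. Its low value was thus confined to 1 of the 4 libraries, and every comparison with control skin of day 30 rests on a pair that differs by 578 against 149 CPM. Epgn was higher in the libraries numbered 1, with 789 and 675 CPM, than in those numbered 2, with 384 and 299 CPM.

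**Figure D3:**
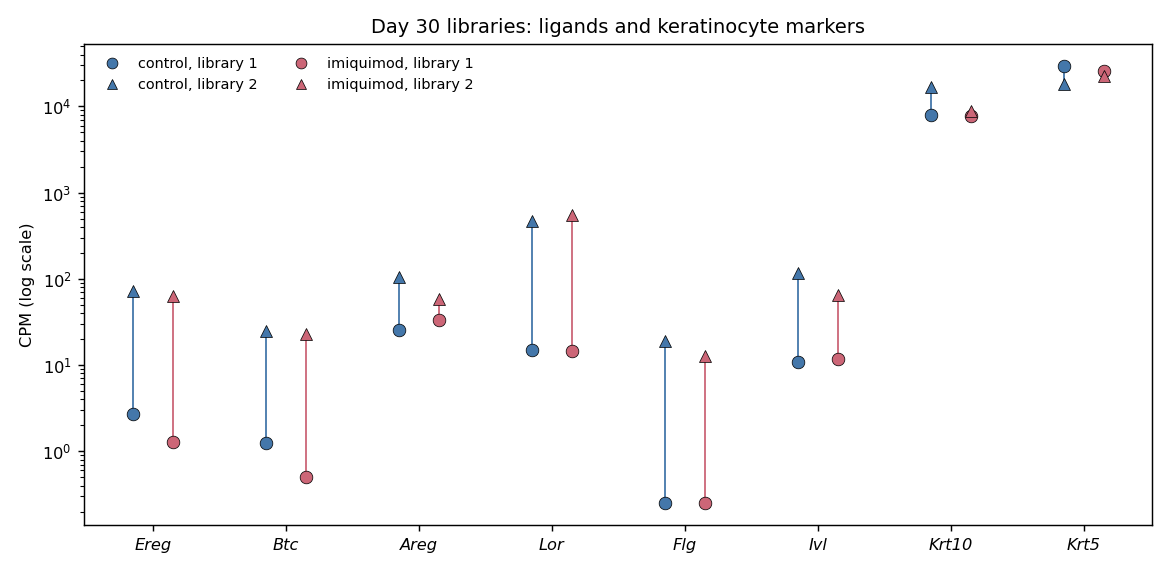
Levels in CPM (y axis, log scale) of 3 ligands and 5 keratinocyte markers (x axis) in the 4 libraries of day 30; blue is control, red imiquimod history, circles are libraries numbered 1, triangles those numbered 2, and lines join the 2 libraries of a group. Ereg, Btc, Lor, Flg and Ivl are higher in both libraries numbered 2 than in both numbered 1, by a wider gap than Krt10, and Krt5 is not. Areg is also higher in both libraries numbered 2, by a wider gap than Krt10 and a smaller one than Ereg, Btc, Lor, Flg and Ivl.

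Wounding was compared with day 30 skin of the same history. In each day 30 pair the library numbered 1 held Y-linked reads and at most 1 Xist read, whereas every wound library held Xist reads. The part of this difference in the wound changes was not tested. Tgfa was the ligand that rose in all 4 comparisons, in control and in imiquimod-history skin and at 6 h and 12 h. It had 46.5 and 29.7 CPM in unwounded control cells, 345 and 432 CPM at 6 h and 311 and 335 CPM at 12 h. With imiquimod history it had 75.1 and 24.8 CPM unwounded, 336 and 401 CPM at 6 h and 246 and 348 CPM at 12 h. All wounded libraries lay above all unwounded ones.

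In control skin the log2 change of Tgfa was 3.21 ± 0.65 at 6 h (adjusted p = 0.00383) and 2.89 ± 0.64 at 12 h (adjusted p = 0.00713). With imiquimod history it was 2.85 ± 0.63 at 6 h (adjusted p = 0.00566) and 2.51 ± 0.63 at 12 h (adjusted p = 0.0106). The 6 h calls held under every alternative run. At 12 h the change in control skin was 2.57 (adjusted p = 0.0595) without control library 2 of day 30, and that with imiquimod history was 1.87 (adjusted p = 0.0629) without imiquimod library 2 of day 30 and had an adjusted p of 0.0628 without the second 12 h library and of 0.0544 without both day 30 libraries numbered 2. The 4 comparisons share day 30 libraries in pairs and are not independent of each other.

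Of the 10 genes, Tgfa and Erbb3 were called higher and Btc lower at 6 h in control skin, where 18% of all genes tested were higher, 16.7% lower and 34.7% changed in all. At 12 h in control skin Tgfa alone of the 10 was called, higher, where 16.5% of all genes were higher, 14.3% lower and 30.8% changed. With imiquimod history Tgfa alone was called at 6 h, higher, where 20.1% of all genes were higher, 18.6% lower and 38.7% changed. At 12 h Tgfa was called higher and Errfi1 lower, where 20.3% of all genes were higher, 17.3% lower and 37.6% changed. Shares of 1 to 3 in 10 were thus no higher than those of all genes. Groups that did not overlap were also common: 5 of the 10 genes against 64.5% of all genes at 6 h and 5 against 68.2% at 12 h in control skin, and 5 against 69.3% and 4 against 70.1% with imiquimod history.

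Other cells' markers also moved with wounding. The sum of 9 macrophage markers was 6.91 to 17.2 CPM in wounds and 2.29 to 2.89 CPM at day 30, with Adgre1 at most 0.228 CPM in wounds. The sum of 8 fibroblast markers was 323 to 810 CPM in wounds against 115 to 331 CPM, nearly all of it Postn, with 315 to 784 CPM in wounds, while Col1a2 was at most 14.1 CPM in wounds and 53.7 CPM in imiquimod library 1 of day 30. That of 7 suprabasal markers was 5882 to 9861 CPM against 14742 to 29155 CPM. The 5 neutrophil markers summed to 73.3 to 174 CPM in wounds against 0.306 to 1.99 CPM, nearly all of it Cxcr2, with Ly6g, Mpo, Csf3r and Retnlg at no more than 3 reads each in a wound library. The part of these cells in the wound values was not tested.

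Erbb3, the neuregulin receptor, had 186 and 251 CPM in unwounded control cells and 357 and 339 CPM at 6 h, its highest values of all groups. The groups were apart, and the log2 change was 0.54 ± 0.17 (adjusted p = 0.0242). Without both day 30 libraries numbered 1 it was 0.35 (adjusted p = 0.195), and without control library 1 of day 30 alone 0.37 (adjusted p = 0.182). Leaving out the first or the second 6 h control library gave adjusted p values of 0.069 and 0.103. With imiquimod history the 6 h libraries had 273 and 299.5 CPM, against 225 and 237 CPM unwounded (log2 change 0.28 ± 0.17, adjusted p = 0.193).

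Btc in wounds was between 0.470 and 1.24 CPM in all 8 libraries. Its log2 change at 6 h in control skin was -4.75 ± 1.64 (adjusted p = 0.0477), and this rests on 1 unwounded library. Without control library 2 of day 30 the change was -1.40 (adjusted p = 0.538), and without both libraries numbered 2, an alternative chosen after the data were seen, it was -1.41 (adjusted p = 0.174). Ereg had the same form, with 3.72 to 7.74 CPM in the 8 wound libraries. Its 4 log2 changes lay between -2.35 and -3.28 with none past the test, and their sign turned when the day 30 libraries numbered 2 were left out, for example from -2.35 to 2.23 (adjusted p = 0.0707) at 6 h with imiquimod history. When the libraries numbered 1 were left out instead, all 4 passed, from -3.36 (adjusted p = 0.00379) to -4.24 (adjusted p = 0.00169). The sign of the fitted Ereg response to wounding thus turned with the day 30 libraries used.

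Errfi1, the feedback inhibitor, was lowest of its wound and day 30 values at 12 h. With imiquimod history it had 475 CPM in both unwounded libraries, 188 and 290.4 CPM at 6 h and 103 and 129 CPM at 12 h. The groups were apart at each step, and the log2 change at 12 h was -2.09 ± 0.58 (adjusted p = 0.0165), at 6 h -1.01 ± 0.56 (adjusted p = 0.182). The 12 h call was lost on leaving out any 1 of the 4 libraries compared, with adjusted p values from 0.0504 to 0.111. In control skin Errfi1 had 245 and 325 CPM at 6 h and 129 and 146 CPM at 12 h against 578 and 149 CPM unwounded, a log2 change at 12 h of -1.62 ± 0.57 (adjusted p = 0.0532). That change was -2.30 without control library 2 of day 30 (adjusted p = 0.00304) and -0.30 without both libraries numbered 1 (adjusted p = 0.664).

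The mean level of Egfr was highest in the 6 h wounds, at 275 and 263 CPM in control and 279 and 268 CPM with imiquimod history. Each pair lay above its day 30 pair, and the log2 change was 0.33 ± 0.13 in both histories (adjusted p = 0.0733 in control skin and 0.0676 with imiquimod history). With library totals in place of TMM both passed, at 0.46 (adjusted p = 0.0105) and 0.35 (adjusted p = 0.0357), while the median of all genes in control skin moved from 0.01 to 0.15. At 12 h Egfr had 230.2 and 263 CPM in control and 223 and 245 CPM with imiquimod history.

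Areg, Hbegf, Epgn and Erbb2 did not pass the test in any wound comparison. Areg had 74.4 to 109 CPM in the 4 control wound libraries, which overlapped the unwounded pair of 25.3 and 105 CPM, and 74.6 to 162 CPM in the 4 with imiquimod history, above their unwounded pair of 33.3 and 58.2 CPM (log2 change at 12 h 1.37 ± 0.80, adjusted p = 0.213). Hbegf in control skin was lower in all 4 wound libraries, 162 to 216 CPM, than in the unwounded pair of 302 and 281 CPM, with a log2 change of -0.76 ± 0.44 at 6 h (adjusted p = 0.203). Epgn in wounds was between 301 and 525 CPM and Erbb2 between 159.9 and 237 CPM.

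Between 6 h and 12 h none of the 10 genes passed the test in either history, where 0.647% of all genes did in control and 0.173% in imiquimod-history skin (edgeR; 1 of the 10 at an unadjusted p under 0.05 in control and 0 in imiquimod-history skin; 0 by DESeq2 in either). Groups did not overlap for 8 of the 10 in control skin, against 53.2% of all genes, and for 6 of the 10 with imiquimod history, against 45.9%. Errfi1 was lower at 12 h than at 6 h in every library of each history. Its log2 change was -1.12 ± 0.56 in control (adjusted p = 0.422) and -1.08 ± 0.56 in imiquimod-history skin (adjusted p = 0.545).

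The study's design also asks whether a past imiquimod treatment altered these genes in the wound. None of the 10 genes passed at 6 h or 12 h (edgeR; 0 at an unadjusted p under 0.05 and 0 by DESeq2 at each time), against 0.0347% and 0% of all genes tested. Tgfa had a log2 difference of -0.04 ± 0.59 at 6 h and -0.06 ± 0.59 at 12 h between the histories. Erbb3 at 6 h, with 357 and 339 CPM in control and 273 and 299.5 CPM with imiquimod history, did not overlap and had a log2 difference of -0.24 ± 0.17 (adjusted p = 0.923). At 6 h 5 of the 10 genes had groups that did not overlap, where 35.2% of all genes did, and at 12 h 3 of the 10, where 41.2% did.

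The wound responses of the 2 histories were also set against each other. The difference of responses passed for none of the 10 genes at 6 h or 12 h (edgeR; 0 at an unadjusted p under 0.05 and 0 by DESeq2), as for 0% of all genes. For Tgfa it was -0.37 ± 0.84 at 6 h and -0.38 ± 0.84 at 12 h, for Egfr 0.00 ± 0.19 and -0.07 ± 0.19. The standard error was wide for Tgfa and narrow for Egfr.

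The rest of the pathway was followed in 86 tested genes of 6 lists. At day 6 of imiquimod 21 of the 86 were higher (24.4%) and 14 lower (16.3%), near the 21.6% and 15% of all genes tested. At 6 h after wounding 19 were higher and 24 lower in control skin, 50% in all against 34.7% of all genes. With imiquimod history 23 were higher and 32 lower, 64% against 38.7%. At 12 h 14 were higher and 29 lower in control skin, 50% against 30.8%, and 16 higher and 38 lower with imiquimod history, 62.8% against 37.6%. These shares are a description of chosen lists and were not tested against other genes. None was called between the histories at day 30 or in the wounds (edgeR; 3 at an unadjusted p under 0.05 at day 30, 4 at 6 h and 1 at 12 h; DESeq2 called 0, 1 and 0).

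**Figure D4:**
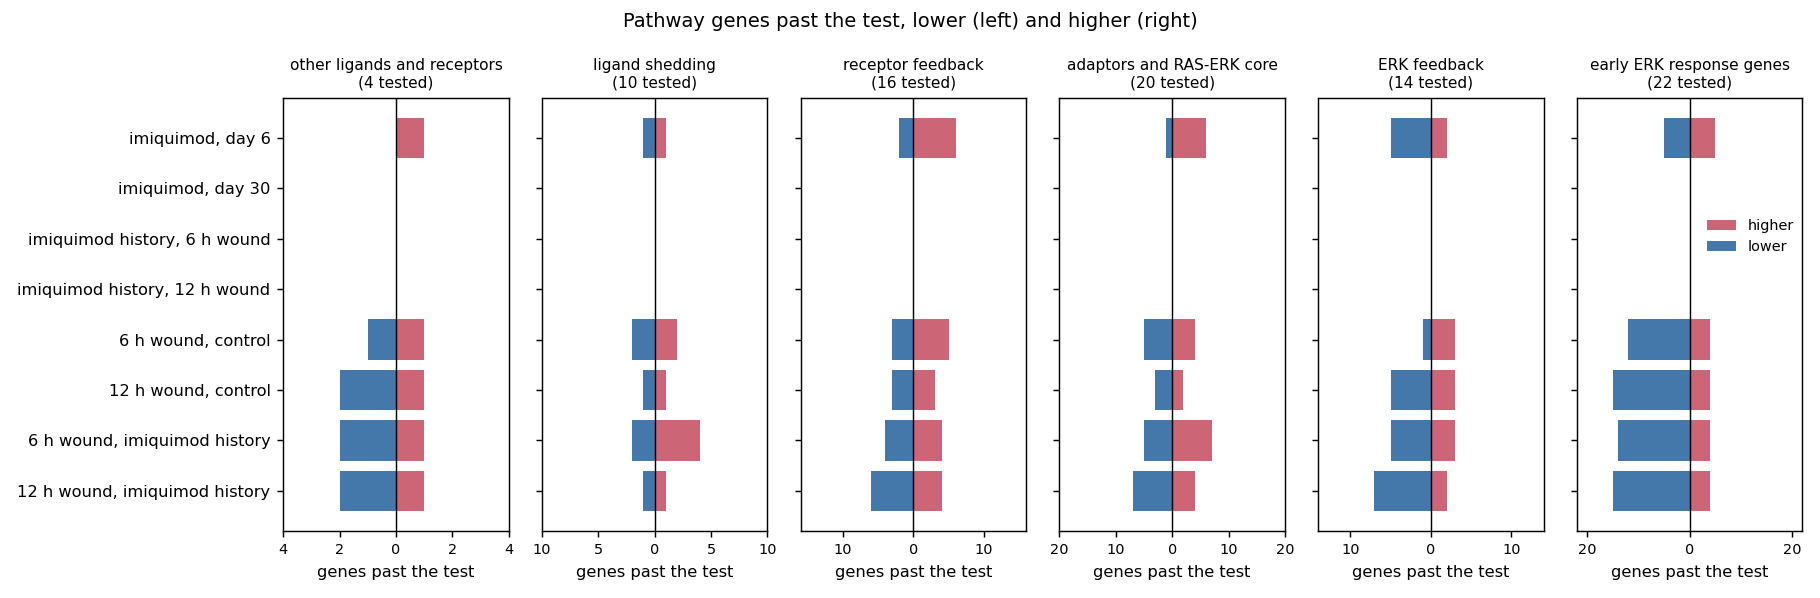
Number of genes past the test (x axis) in 6 lists of pathway genes, lower to the left and higher to the right of 0, for 8 comparisons (y axis). The 3 comparisons of imiquimod against control after day 6 are empty, and among the 22 early ERK response genes 12 to 15 are lower in each wound comparison and 4 higher.

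Among the other ligands and receptors 4 of 6 were tested, and Nrg1, a neuregulin that binds ERBB3, was the 1 that rose at day 6. It had 6.88 and 2.03 CPM in control and 33.4 and 28.5 CPM in imiquimod cells (log2 change 2.97 ± 0.75, adjusted p = 0.0112). In wounds it had 44.9 to 85.4 CPM in all 8 libraries against 2.99 to 10.3 CPM unwounded, with log2 changes of 2.84 to 3.35, past the test in each comparison. Nrg2 fell in 3 of the 4 wound comparisons, with log2 changes down to -2.55.

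Of the genes of ligand release 10 of 11 were tested. At day 6, 1 was higher and 1 lower, against 21.6% and 15% of all genes. In a wound comparison 2 to 6 were called, against 30.8% to 38.7% of all genes. Adam10, a protease that sheds several of the ligands, rose at day 6 by 0.70 ± 0.18 (adjusted p = 0.00866), from 108 and 117 CPM to 127 and 184 CPM. In wounds with imiquimod history it rose by 0.56 at 6 h and 0.73 at 12 h on the log2 scale (adjusted p = 0.0264 and 0.0066). Adam17, the main sheddase of Areg and Tgfa and named here after its values were seen, had 143 and 132 CPM in control and 118 and 135 CPM in imiquimod cells and was not among the genes called. Rhbdl2, a rhomboid protease, fell at day 6 by 0.91 on the log2 scale (adjusted p = 0.0064), and in all 4 wound comparisons. Adam8, a metalloprotease, rose by 1.54 and Adam9 by 0.72 on the log2 scale at 6 h in control skin (adjusted p = 0.00841 and 0.0101). They rose by 1.10 and 0.62 at 6 h with imiquimod history (adjusted p = 0.0349 and 0.0195), and Adam8 rose by 1.27 at 12 h in control skin (adjusted p = 0.024).

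Genes that restrain the receptor went both ways. Of 16 tested, 6 were higher and 2 lower at day 6, and 3 to 5 higher and 3 to 6 lower in each wound comparison; of all genes tested 21.6% were higher and 15% lower at day 6, and 16.5% to 20.3% higher and 14.3% to 18.6% lower in wounds. Ptprj, a phosphatase that acts on EGFR, rose at day 6 (from 12.1 and 7.02 to 24.1 and 19.5 CPM, log2 change 1.39 ± 0.25, adjusted p = 0.000845) and by 1.80 to 2.13 in wounds. Lrig3 fell at day 6 by 0.87 on the log2 scale (adjusted p = 0.00161), from 123 and 129 to 66.5 and 52.5 CPM, and in the 4 wound comparisons, with log2 changes from -0.87 to -1.60. Sh3kbp1, an adaptor of receptor endocytosis, rose at day 6 from 3.45 and 2.75 to 36.0 and 57.4 CPM (log2 change 4.14 ± 0.88, adjusted p = 0.00424).

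Downstream, 6 of 20 adaptor and RAS-ERK genes were higher and 1 lower at day 6, against 21.6% and 15% of all genes. Map2k1, the kinase MEK1, rose at day 6 from 60.5 and 57.2 to 101 and 110.0 CPM (log2 change 1.06 ± 0.22, adjusted p = 0.00234), and had 153 to 253 CPM in wounds (log2 changes of 1.08 to 1.62). Mapk3, the kinase ERK1, fell at 6 h in control skin by 1.25 on the log2 scale (adjusted p = 0.000172). Its log2 change was -1.18 at 6 h with imiquimod history and -0.79 at 12 h in control skin (adjusted p = 0.000181 and 0.00357).

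The 14 feedback inhibitors of ERK signalling and the 22 early ERK response genes held members with opposite changes. Spry2, a sprouty inhibitor, fell at day 6 by 1.52 on the log2 scale (adjusted p = 0.000128) and rose at 6 h in control skin by 1.53 (adjusted p = 0.000157). It also rose by 1.29 at 12 h in control skin (adjusted p = 0.000554). With imiquimod history it rose by 0.63 at 6 h and 0.60 at 12 h (adjusted p = 0.0236 and 0.0293). Spred3 had 0.508 to 0.713 CPM in unwounded day 30 cells and 15.9 to 30.6 CPM in wounds, with log2 changes of 4.58 to 5.28. Elk3 and Etv4, ETS transcription factors, rose at day 6 (2.51 ± 0.32 and 2.24 ± 0.41), and Elk3 rose in all 4 wound comparisons. Fosb, an AP-1 subunit, fell in the same comparisons: it had 5139 and 4191 CPM in day 6 control and 675 and 978 CPM in imiquimod cells (log2 change -2.27 ± 0.32, adjusted p = 0.000201), and 516 to 1553 CPM in wounds against 4677 to 6491 CPM unwounded. Of the 22 early response genes 12 and 14 were lower at 6 h in control and imiquimod-history skin, and 15 at 12 h in each, where 16.7%, 18.6%, 14.3% and 17.3% of all genes were lower in the same order of comparisons. In each of these, 4 of the 22 were higher, where 16.5% to 20.3% of all genes were.

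The genes whose group means followed each of the 10 most closely were found by Pearson's r of mean log2 CPM over the 8 groups. They are given for some of the 10, as a description, since the points share libraries. They had the highest r in a search of many genes over only 8 points, so part of its size comes from that choice. For Tgfa they were Pcyox1 (r = 0.996), Afap1 and Heatr3 (0.995 each), and for Areg Bsg (0.991). For Ereg they were Lypd3 (0.981), Piga and Nectin4 (0.973 and 0.972), for Btc Suds3 (0.985), Sfn (0.983) and Zfp750 (0.982), and for Errfi1 Tmtc2 (0.985), Sos2 (0.984) and Erf (0.979). The highest r for Erbb2 was lower, 0.912 with Sp2. Among the 10 genes themselves, over the 16 libraries, r was highest for Hbegf with Epgn (0.833), Hbegf with Areg (0.823) and Ereg with Btc (0.805). The day 30 libraries numbered 2 held the highest Ereg and Btc of all 16, and their part in these values of r was not tested.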

How the data were processed

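The 10 genes, the pathway and marker lists and the alternatives were chosen with earlier results of these data known. The deposited counts, 1 whole number per gene and library, were made by the authors with STAR on mm10, per the submitters' processing notes; tool versions, the gene annotation and the strand column are not stated there, and counts were read as unstranded. Libraries were prepared with an Illumina TruSeq kit, per the labels' protocols. Groups follow the labels; 12 ATAC-seq samples were not used here. Counts without a symbol made up 0.0365% to 0.0887% of a library.

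Counts were tested in R 4.3.3 with edgeR 4.0.16 (TMM scaling, filterByExpr by group, robust quasi-likelihood F test, two-sided) in 1 fit of 8 group means with 8 residual degrees of freedom, with Benjamini-Hochberg adjustment across the 17299 tested genes and a threshold of 0.05. This fit did not pair libraries by replicate number, and results with such a block are given where they changed a call. The SE is the absolute log2 change divided by the square root of F. The model shares the spread between genes; an exact permutation test of 2 against 2 libraries cannot go below 0.333. CPM are counts scaled to a common library total, without the TMM factor. The script was tested on simulated counts for the day 6 comparison, with the same spread set for all genes. It called 26.1% of genes changed by 1 on the log2 scale and 87.8% of those changed by 2. Of its calls 3.51% were false.

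Alternatives were RLE scaling, DESeq2 1.42.0, no filter, thinning every library to 23623968 counts, only the compared groups, the replicate block, and leaving out libraries or mitochondrial genes; leaving out the day 30 libraries numbered 2 and scaling by library totals alone were added after the data were seen. Replicate numbers come from the sample titles. Same-numbered libraries of a time point deviated together across genes (r from 0.22 to 0.539 in 4 pairs). Across time points r ran from -0.285 to 0.115 in 24 pairs. For every pair of 6 h with 12 h wounds it was negative, from -0.285 to -0.233, larger in size than the lowest same-time r. The numbers served as a block within time points in an alternative, and whether they mark paired libraries was not settled.

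Named pathway genes are up to 3 per list, direction and comparison with the largest change among those past the threshold at a mean log2 CPM of at least 2. Levels per exon length were planned, but a length was not used here, so levels of different genes are not compared.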

Additional observations from a re-analysis of the deposited data

Results flagged for a closer look

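For 2 of the 10 genes the effect of imiquimod differed between the time points by a test of the difference itself, where 22.5% of all genes tested differed. The log2 effect on Areg was larger at day 6 than at day 30 by 4.14 (3.56 at day 6 and -0.58 at day 30; edgeR, adjusted p = 0.0323), and that on Hbegf by 1.99 (1.70 at day 6 and -0.29 at day 30; edgeR, adjusted p = 0.0408). Each was higher than both controls in 2 of 2 imiquimod libraries at day 6, where 67.7% of all genes tested had groups that did not overlap, in either direction. Both calls were lost with the replicate number as a block within time points (Areg adjusted p = 0.0932, Hbegf 0.115), in which Ereg, Btc and Egfr passed, and in 17 and 18 of the 27 alternative analyses.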

How the results depend on the processing

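Of 130 results, 1 for each gene and comparison, 13 passed the threshold; all 13 kept their direction in every alternative, but only 2, Tgfa at 6 h in each history, also passed in every one. Of the 117 that did not pass, 29 passed in at least 1 alternative. Counts below are of the 10 genes past the threshold. With only the compared groups fitted, they were 2 at day 6 (4 as reported), 0 for the difference between day 6 and day 30 (2), 1 at 6 h and 2 at 12 h in control wounds (3 and 1) and 2 at 6 h with imiquimod history (1). Without a filter on low counts they were 5 and 6 in control wounds at 6 h and 12 h, 5 at each time with imiquimod history (1 and 2), 6 for the difference between day 6 and day 30, and 1 (0) for each of 12 h against 6 h in both histories and for the difference of 12 h responses; the prior degrees of freedom of that fit were infinite, against a median of 5.06. DESeq2 called 3 in control wounds at 12 h and 3 at 6 h with imiquimod history. Without both day 30 libraries numbered 1 the count was 4 at 12 h in control wounds, 3 at 6 h and 4 at 12 h with imiquimod history; without both numbered 2 it was 2 at 12 h in control and 1 at 12 h with imiquimod history. Library totals alone gave 2 at 12 h in control and 2 at 6 h with imiquimod history. Leaving out 1 library gave 0 to 5 calls at day 6, 0 to 2 for the difference between day 6 and day 30, 1 to 3 at 6 h and 1 to 2 at 12 h in control wounds, 1 to 3 at 6 h and 0 to 2 at 12 h with imiquimod history, and 0 to 0 elsewhere; the 0 at day 6 came without control library 2 of day 6, and the 0 at 12 h with imiquimod history without the second library of either group. Where such a fit left 1 library in a group, that library was assumed to vary like the others. The block by replicate number within time points, which applies to the comparisons of the histories, gave 5 calls at day 6 and 3 for the difference between day 6 and day 30; it changed the calls of Hbegf, Ereg and Btc at day 6 and of Areg, Hbegf, Ereg, Btc and Egfr for that difference, as given with those results, and no other call among these comparisons. The block by number over all libraries gave 2 in control wounds at 6 h. Over all genes tested, the share called at day 6 was 29.3% with only the compared groups, 20.9% without the filter and 48.9% with the block within time points (36.6% as reported), and for the difference between day 6 and day 30 it was 11.1%, 13.7% and 34.3% (22.5%). In wounds it was 23.9% to 42.1% with only the compared groups, 18.4% to 22.3% without the filter, 33.8% to 41.3% by DESeq2, 24.2% to 32.9% without the day 30 libraries numbered 1, 24.5% to 28.1% without those numbered 2 and 32% to 37.5% with library totals (30.8% to 38.7%). The cause of these changes was not tested. Relative counting error was largest for Btc and Ereg, and reads were not collapsed to molecules.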
